A study of Rattus norvegicus with 8 samples.

Results

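Glucose uptake, glycolysis and glycogen synthesis were followed gene by gene in the ventral prostate of single TRAP rats. The set was named as 10 genes: the glucose transporter Slc2a1, the hexokinases Hk1 and Hk2, the phosphofructokinase Pfkp, the phosphoglycerate kinase Pgk1, the enolase Eno1, the pyruvate kinase Pkm, the lactate dehydrogenase Ldha, and the glycogen synthases Gys1 and Gys2. Members were found by the gene name that the array files give each probe, with Pkm also accepted under its older name Pkm2. In this way 9 of the 10 genes were found, with 12 probes in all, among 23188 genes tested. For Gys1, the muscle form of glycogen synthase, no probe was found by that rule, so Gys1 was not analysed here. Gys2 was put in the set because it was already known to differ strongly between single rats of these data, so its levels are described without a test.

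TRAP rats carry a transgene in which the promoter of probasin, a secretory protein of the prostate epithelium, drives a viral large T antigen, so that the oncogene acts in the gland's epithelial cells and adenocarcinoma develops there. Heterozygous male TRAP rats of the SD strain were divided at 3 weeks of age, and both groups used here carried the transgene. The 4 control rats (Control 102, 103, 104 and 106) had basal diet and tap water. The other 4 rats (Telmisartan-treated 302, 303, 305 and 306) took telmisartan, which blocks the AT1 receptor of angiotensin II, in their drinking water for 12 weeks at 10 mg/kg/day per the series text. Prostates were taken at 15 weeks of age, and the Cy5 channel of each array held the RNA of 1 rat. The Cy3 channel held normal ventral prostate of male F344 rats aged 6 weeks. Values are log2 ratios of Cy5 over Cy3, so 0 means the level of the reference and 1 means a 2-fold higher level. Strain, age, transgene and dye all differ between the channels, so the level over the reference is a description. The comparison of treated with control rats asks how the drug changes gene expression in the tumour-bearing gland.

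Glycolysis turns glucose into pyruvate. A transporter lets glucose into the cell, hexokinase traps it as glucose 6-phosphate, and phosphofructokinase commits it to the pathway. The later enzymes recover the energy as ATP, and lactate dehydrogenase turns pyruvate into lactate. Tumours of many tissues take up glucose and release lactate even when oxygen is present. Glycogen synthase instead adds glucose to a stored polymer, with Gys2 best known as the form of the liver. The secretory epithelium of the normal prostate is known for an unusual metabolism in which citrate is exported rather than oxidised.

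The probes of the 3 genes that were measured by 2 probes are shown, because the trust placed in a pattern over rats rests on whether both probes gave it. They are 60-base oligonucleotides as listed in the array files, in lower case and read 5′ to 3′. The second probe was the dimmer one of each gene and was not used in the fit.
Gys2 first probe: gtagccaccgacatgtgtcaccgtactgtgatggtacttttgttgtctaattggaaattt
Gys2 second probe: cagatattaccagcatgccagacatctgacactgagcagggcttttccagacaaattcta
Eno1 first probe: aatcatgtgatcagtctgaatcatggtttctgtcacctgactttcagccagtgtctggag
Eno1 second probe: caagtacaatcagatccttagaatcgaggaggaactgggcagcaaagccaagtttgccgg
Hk1 first probe: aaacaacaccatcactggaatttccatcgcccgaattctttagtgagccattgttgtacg
Hk1 second probe: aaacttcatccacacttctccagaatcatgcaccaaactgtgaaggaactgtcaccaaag
The probes of Slc2a1, Pgk1 and Ldha were each printed in 10 spots of every array. The SD over these spots lay between 0.02 and 0.04, well under the SD over the control rats of 0.30 for Slc2a1, 0.27 for Pgk1 and 0.20 for Ldha. For these 3 genes the differences between rats described here were therefore several times the error of reading a spot, although the error of extracting and labelling the RNA is not part of that measure.

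The arrays lay on 2 slides with 2 rats of either group each. Slide 1 held Control 102, Control 103, Telmisartan-treated 302 and Telmisartan-treated 303. Slide 2 held Control 104, Control 106, Telmisartan-treated 305 and Telmisartan-treated 306. In Cy5, 64.7% to 76.8% of the gene spots were well above background in control rats and 59.2% to 68.1% in treated rats. Telmisartan-treated 302 had the lowest share and the lowest median Cy5 intensity, 259. Defining secretory products of the ventral prostate were detected, as 8 of 8 such genes were well above background on at least 1 array, and the 7 of them that were tested had a mean log2 ratio of -4.88 to -4.28 in control rats and -4.69 to -4.35 in treated rats. Of the 7, 6 lay more than 2-fold below the reference in all 8 rats and 1 lay more than 2-fold above it. In treated rats 4 of the 7 were higher on average and 3 lower. Pbsn, probasin, was among the lower ones, at -2.43 ± 0.41 in control and -2.78 ± 0.18 in treated rats (SD, n = 4 each). Scgb1d2, with the smallest p of the list, was higher, by 0.81 (SE 0.22, limma adjusted p = 0.923). In bulk tissue such as this, fewer cells of a type and less RNA per cell cannot be told apart.

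By its first probe, with control signals at background level counted as read, Gys2 had the widest spread over the 8 rats of all 23188 genes. Its SD was 2.42, against a median SD of 0.18 over all genes and 1.96 for the next gene. Gys2 was chosen for such a spread, so this rank is only a description. In control rats the Gys2 log2 ratio was -0.08 in Control 102, -5.07 in Control 103, -5.28 in Control 104 and -5.44 in Control 106. In treated rats it was 0.85 in Telmisartan-treated 302, -1.72 in Telmisartan-treated 303, -3.42 in Telmisartan-treated 305 and -2.19 in Telmisartan-treated 306. A single control rat therefore stood near the reference while the other 3 lay at the bottom of the scale, and the treated rats were spread from above the reference to far below it. All 4 treated rats lay above the 3 low controls, but Control 102 lay above 3 of the 4 treated rats, so the groups overlapped. The means of the values as read were -3.97 ± 2.60 in control and -1.62 ± 1.80 in treated rats (SD, n = 4 each). Their difference, 2.35, is not an exact size, because it counts control signals at background level as if they were measured. It was 3.64 without Control 102 and 1.52 without Telmisartan-treated 302, 2.14 on slide 1 and 2.56 on slide 2, 4.19 with the ratios of the scanner software and 1.43 with the mean of both probes.

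The raw signals show where that spread arose. The Cy5 intensity of the first Gys2 probe was 4229 in Control 102, 125 in Control 103, 130.5 in Control 104 and 132 in Control 106. In treated rats it was 8308 in Telmisartan-treated 302, 1829 in Telmisartan-treated 303, 489 in Telmisartan-treated 305 and 1222 in Telmisartan-treated 306. The local background around these spots lay between 68.0 and 78.5 on every array, and the Cy3 intensity of the same spots, the normal prostate, lay between 966 and 1173. Cy5 was the brighter dye on the arrays as a whole, with a median intensity of 259 to 387 against 184 to 200 in Cy3. Loess balances the dyes at each intensity, so a Gys2 spot brighter in Cy5 than in Cy3 can have a ratio below 0. With each array centred on its median instead, the Gys2 control mean was -3.21 in place of -3.97. Where Gys2 lies against the reference therefore depends on how the dyes are balanced. The reference signal was nearly constant, and the spread lay in the TRAP rats' own channel. In Control 103 and Control 106 the probe was not well above background, so only a bound can be given there, and the 3 low controls have no order among themselves. After normalization between arrays, Telmisartan-treated 302 was 2.02-fold above Control 102, at least 68.3-fold above Control 103 and at least 64.9-fold above Control 106. The bounds were taken against the lowest signal among probes well above background on the dim array, and for Control 104, which lay at that lowest signal, the fold was 86.0. In the same Cy5 values, with each low control at its own signal or at that lowest signal, whichever was higher, the lowest treated rat lay above the highest of the 3 by 1.48 on the log2 scale. The 3 were grouped because they were low, with Control 102 set aside, so this margin is only a description. On the second probe these rats were close, with a log2 Cy5 of 6.55 in Telmisartan-treated 305 and 6.48 in Control 103.

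The second Gys2 probe, which was not well above background in Control 106, also had Telmisartan-treated 302 and Control 102 at the top and the 3 low controls at the bottom. Its log2 ratio was -0.09, -1.63, -1.68 and -1.83 in Control 102, 103, 104 and 106, and 0.56, -1.06, -1.54 and -1.11 in Telmisartan-treated 302, 303, 305 and 306. The probes correlated over the 8 rats at r = 0.947, given as a description because both read the same RNA and the low controls were at or near background. The range of the values as read was 2.39 for this probe and 6.29 for the brighter one, and both end in Control 106, where neither probe was well above background. Its reference signal was weak, at a Cy3 intensity of 249 to 291, so the ratio had less room to fall.

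**Figure D1:**
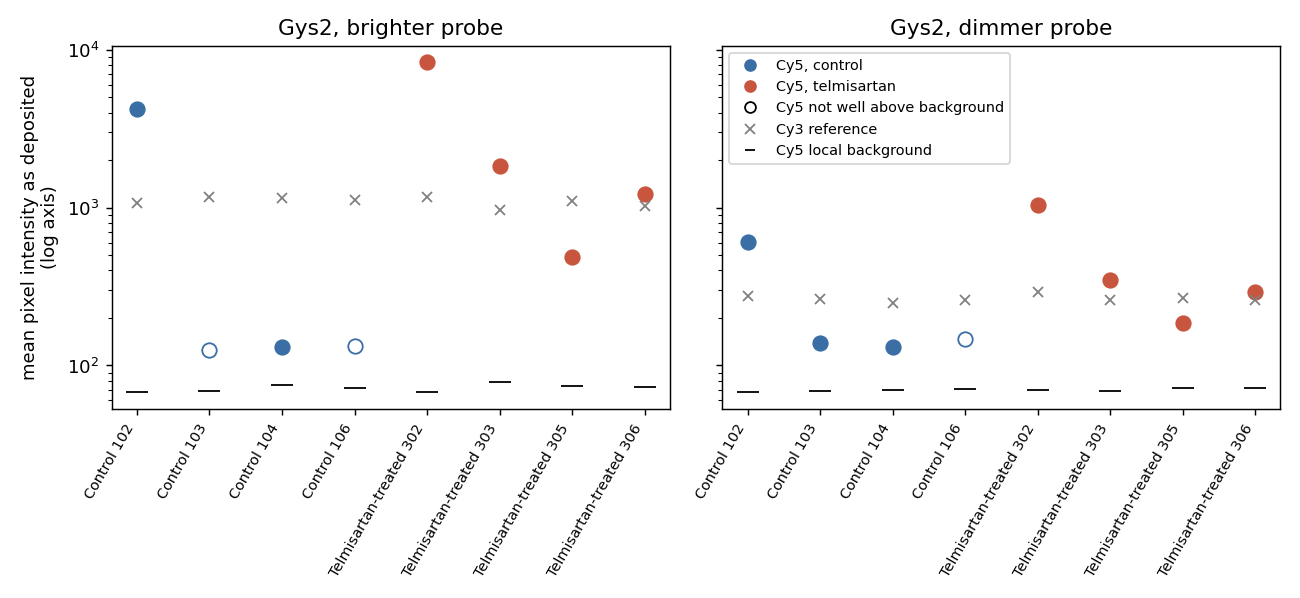
Mean pixel intensity, as deposited and on a log axis, of the 2 Gys2 probes in each of the 8 rats. Filled circles are the Cy5 signal of the TRAP prostate (blue control, red telmisartan), open circles are Cy5 signals not well above background, crosses are the Cy3 reference and dashes are the Cy5 local background; Control 102 and Telmisartan-treated 302 were the brightest on both probes, while the crosses were nearly level.

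Cell types that are known for Gys2 or for glycogen were followed through their markers. Of 10 hepatocyte markers 4 were tested, their mean ran from 0.36 to 0.43 in control and from 0.08 to 0.50 in treated rats, and Cps1, Tat and Ttr were not well above background on any array. In Control 102 and Telmisartan-treated 302, the rats with the brightest Gys2, that mean was 0.36 and 0.13, against 0.36 to 0.43 in the 3 controls with the dimmest. The mean of 9 adipocyte markers ran from -2.59 to -2.47 in control and from -2.91 to -2.43 in treated rats, with Lep and Plin1 not well above background on any array. The mean of 7 skeletal muscle markers ran from -4.42 to -4.26 and from -4.43 to -4.28. None of these 3 means set Control 102 and Telmisartan-treated 302 together above the other rats. The part of liver, fat or muscle cells in the Gys2 signal was not tested.

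The genes most like Gys2 were looked for among 635 others with a symbol and an SD over the rats of at least 0.5. The highest correlation over the 8 rats was that of Car6, a secreted carbonic anhydrase, at r = 0.83 with a rank correlation of 0.905. Its log2 ratio was -0.51, -0.85, -1.52 and -1.59 in Control 102, 103, 104 and 106, and 0.42, -0.07, -1.41 and -1.06 in Telmisartan-treated 302, 303, 305 and 306. Next were Sult1c2a, a sulfotransferase, at 0.69, the neurexin ligand Nxph1 at 0.68, the transcription factor Nfix at 0.68, the aldo-keto reductase Akr1c12 at 0.67 and the glutathione transferase Gstm7 at 0.66. The most opposite genes were the immediate early transcription factor Egr1 at -0.87 and the matricellular factors Ccn2 at -0.83 and Ccn5 at -0.75. Without Control 102 and Telmisartan-treated 302 the order changed: r was then 0.68 for Car6, 0.53 for Sult1c2a, 0.51 for Nxph1, 0.51 for Nfix, 0.87 for Akr1c12 and 0.87 for Gstm7, and -0.97 for Egr1, -0.87 for Ccn2 and -0.78 for Ccn5. The Gys2 values of the low controls in these correlations are signals at or near background. These genes were picked for their correlation from many, over only 8 rats in 2 groups, so no p is given and the values only describe which genes ran alongside Gys2.

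The glucose transporter and the enzymes of glycolysis varied far less. On average over the 4 control rats 7 of these 8 genes lay above the reference. The median of these control means was 0.77 for the 8 genes and 0.06 over all genes tested, so a typical gene also lay above it. Eno1, Hk1, Ldha and Pgk1 lay above the reference in all 8 rats, as did 30.8% of all genes. None of the 8 lay above 2-fold in all 8 rats (3.73% of all genes did). Hk2 lay below the reference in all 8 rats, as did 25.7% of all genes, and no member, Gys2 included, lay more than 2-fold below it in all 8 (3.29% of all genes did). These levels depend strongly on how the dyes are balanced. Centring each array on its median, in place of the loess fit that balances the dyes at each intensity, raised the control means of the 8 genes by 0.60 to 1.36 and put Hk2 at 0.46.

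All 8 genes were lower on average in treated than in control rats, with a median difference of -0.19 and a range from -0.53 to -0.07. Over all genes tested 50.6% were lower, with a median difference of -0.002. None passed limma's test after Benjamini-Hochberg adjustment over 23188 genes, and neither did any other gene (0.0% called). At an unadjusted p under 0.05, 2 of the 8 were lower, Pfkp and Slc2a1, and 0 were higher, where over all genes 2.07% were lower, 2.74% higher and 4.82% either. The control and treated values overlapped for each of the 8, where 2.73% of all genes did not overlap. The 8 genes do not count as separate evidence, because they were read in the same RNA of the same rats. The direction rested in part on single rats: without Telmisartan-treated 302, 7 of the 8 were lower with a median of -0.10 and 0 had an unadjusted p under 0.05, and without Control 102 all 8 were lower and again 0 did. Without Control 104, Control 106 or Telmisartan-treated 306 it was 1. All 8 were lower on either slide alone, with -0.29 and -0.13 on slides 1 and 2 for Ldha, -0.19 and -0.13 for Eno1, -0.24 and -0.06 for Hk1, -0.03 and -0.12 for Hk2 and -0.12 and -0.04 for Pkm.

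**Figure D2:**
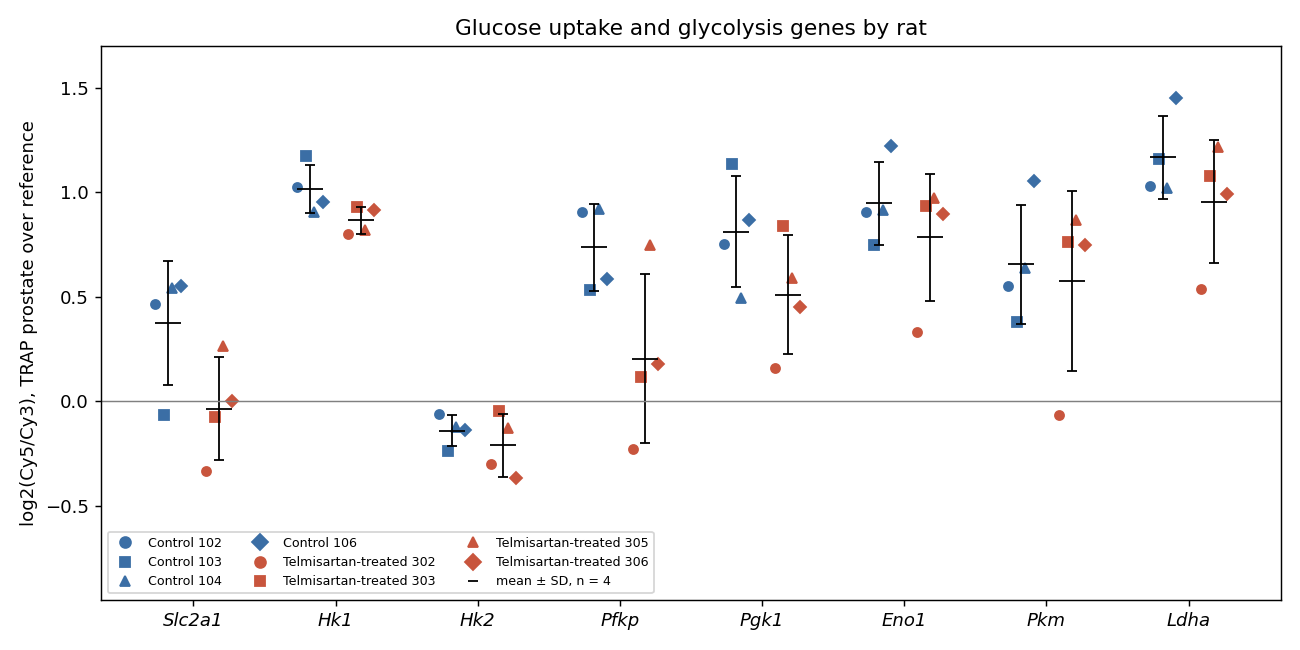
Log2 ratio of TRAP prostate over reference for the 8 genes of glucose uptake and glycolysis, with 1 marker per rat and the mean ± SD of each group in black (n = 4 each). Telmisartan-treated 302, the red circle, was the lowest of the 8 rats for every gene but Hk2, and the groups overlapped for each gene.

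Slc2a1 encodes GLUT1, which carries glucose across the plasma membrane. Its log2 ratio was 0.46, -0.07, 0.54 and 0.55 in Control 102, 103, 104 and 106, and -0.34, -0.08, 0.26 and 0.003 in Telmisartan-treated 302, 303, 305 and 306. Control 103 lay among the treated rats, and the other 3 controls lay above all treated rats. The means were 0.37 ± 0.30 and -0.04 ± 0.25 (SD, n = 4 each), a difference of -0.41 with an SE of 0.17. In the limma fit over all genes its unadjusted p was 0.0366 and its adjusted p 0.982. The difference was -0.40 on slide 1 and -0.42 on slide 2, -0.56 without Control 103 and -0.31 without Telmisartan-treated 302.

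Hexokinase carries out the first step. Hk1, the form found in most tissues, was at 1.03, 1.17, 0.91 and 0.95 in Control 102, 103, 104 and 106, and at 0.80, 0.93, 0.82 and 0.92 in Telmisartan-treated 302, 303, 305 and 306. The rats lay close together and the groups overlapped, with a difference of -0.15 (SE 0.09, adjusted p = 0.982). Its second probe gave 0.51, 0.80, 0.78 and 1.11 in control and 0.34, 0.83, 0.89 and 0.96 in treated rats, a difference of -0.04. The Hk1 probes ranked the rats differently, with r = 0.146 over the 8 rats, so the order of rats for Hk1 is not settled by these data.

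Hk2, the insulin-responsive form that is often raised in tumours, was not high on this scale. The Hk2 ratios were -0.06, -0.24, -0.13 and -0.14 in Control 102, 103, 104 and 106, and -0.30, -0.05, -0.13 and -0.37 in Telmisartan-treated 302, 303, 305 and 306. The values stayed within 0.32 of each other, and only 14.2% of all genes had a smaller SD over the rats. The Hk2 reference signal was weak, at a Cy3 intensity of 244 to 289, which limits what this narrow range can show. With the ratios of the scanner software the range was 0.45 and the control mean -0.31, in place of -0.14. The difference was -0.07 (SE 0.10, adjusted p = 0.988), and in the Cy5 channel normalised by itself it was 0.03.

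Pfkp, the platelet form of phosphofructokinase, had the widest gap between the group means among the 8 uptake and glycolysis genes. The log2 ratio was 0.91, 0.53, 0.92 and 0.59 in Control 102, 103, 104 and 106, and -0.23, 0.12, 0.75 and 0.18 in Telmisartan-treated 302, 303, 305 and 306. Of the 4 treated rats 3 lay below every control, but Telmisartan-treated 305 lay above Control 103 and Control 106. The means were 0.74 ± 0.21 and 0.20 ± 0.40 (SD, n = 4 each), which makes control rats 1.45-fold higher, with a difference of -0.53 and an SE of 0.19. In the limma fit over all genes its unadjusted p was 0.0211 and its adjusted p 0.982. The difference was -0.77 on slide 1 and -0.29 on slide 2, and -0.39 without Telmisartan-treated 302.

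Pgk1, the enzyme of the first step that yields ATP, was at 0.75, 1.14, 0.49 and 0.86 in Control 102, 103, 104 and 106, and at 0.16, 0.84, 0.59 and 0.45 in Telmisartan-treated 302, 303, 305 and 306. Telmisartan-treated 302 was low and Control 103 high, while the other rats were mixed. The means were 0.81 ± 0.27 and 0.51 ± 0.28 (SD, n = 4 each), with a difference of -0.30 (SE 0.17, adjusted p = 0.982). On slide 1 it was -0.45 and on slide 2 -0.16, and without Telmisartan-treated 302 it was -0.18.

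Eno1, the enolase that makes phosphoenolpyruvate, was at 0.90, 0.75, 0.91 and 1.22 in Control 102, 103, 104 and 106, and at 0.33, 0.93, 0.97 and 0.90 in Telmisartan-treated 302, 303, 305 and 306. The other treated rats lay within the range of the controls, and Telmisartan-treated 302 alone lay under it. The difference of -0.16 (SE 0.16, adjusted p = 0.982) fell to -0.01 without that rat. The second Eno1 probe showed the same rat, at 0.15, far under the other 3 treated rats at 1.03 to 1.06, and the probes correlated at r = 0.962 over the 8 rats.

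Pkm encodes the pyruvate kinase of most tissues, whose splice forms include the M2 form common in growing cells; the probe was not resolved by splice form here. Its log2 ratio was 0.55, 0.38, 0.64 and 1.05 in Control 102, 103, 104 and 106, and -0.06, 0.76, 0.86 and 0.75 in Telmisartan-treated 302, 303, 305 and 306. Telmisartan-treated 302 lay under all other rats, and the other treated rats lay above 3 of the 4 controls. The difference was -0.08 (SE 0.22, adjusted p = 0.997) over all rats and 0.14 without Telmisartan-treated 302, so its sign rested on that rat. It was also 0.05 without Control 106 and 0.01 with each array centred on its median.

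Ldha, which makes lactate from pyruvate, was at 1.03, 1.16, 1.02 and 1.45 in Control 102, 103, 104 and 106, and at 0.54, 1.08, 1.21 and 0.99 in Telmisartan-treated 302, 303, 305 and 306. Control 106 was the highest and Telmisartan-treated 302 the lowest, and the rest lay together around a 2-fold excess over the reference. The means were 1.17 ± 0.20 and 0.96 ± 0.29 (SD, n = 4 each), with a difference of -0.21 (SE 0.16, adjusted p = 0.982) that was -0.07 without Telmisartan-treated 302.

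**Figure D3:**
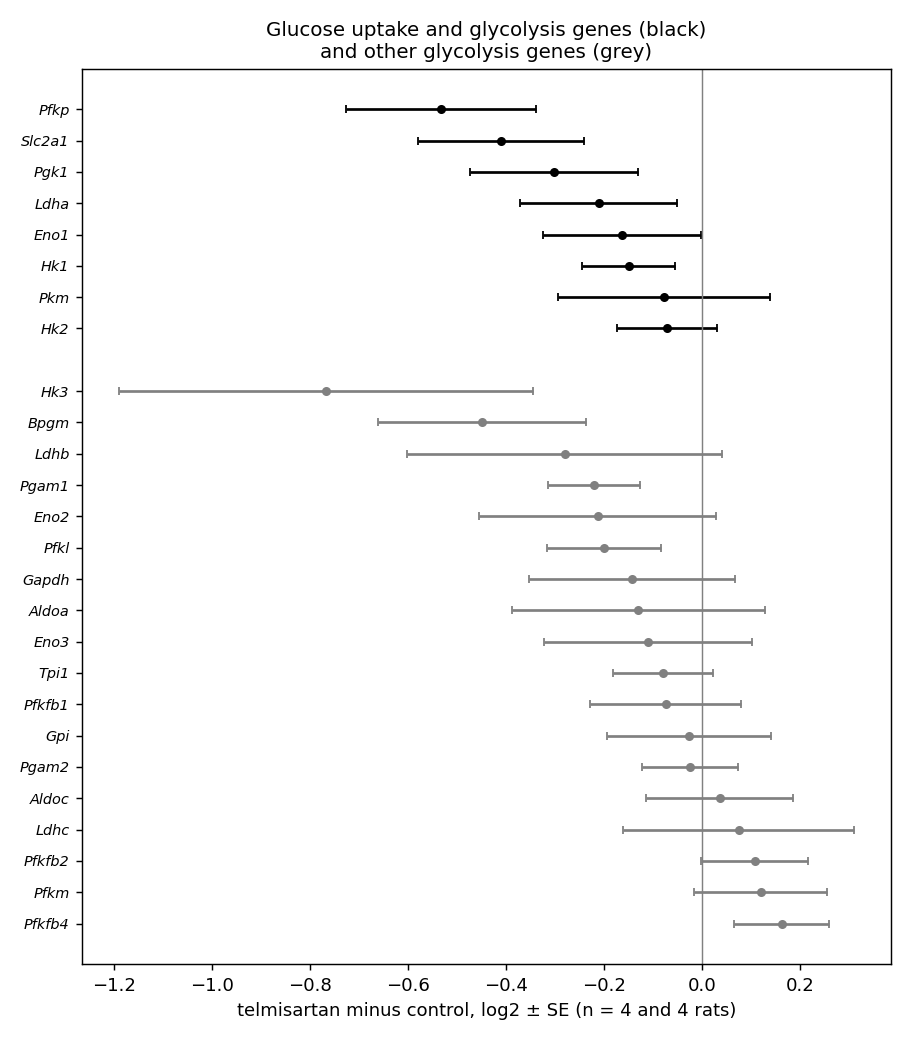
Difference between the means of treated and control rats (log2, with the SE of the limma fit as bars, n = 4 each) for the 8 genes of glucose uptake and glycolysis in black and 18 other glycolysis genes in grey. All 8 black points lie left of 0, from -0.53 to -0.07, as do 13 of the 18 grey ones, and none passed after adjustment.

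Across the 8 rats all 28 pairs of these genes had a correlation above 0, from 0.02 to 0.97 with a median of 0.51, where 50% of the pairs of all genes tested did. This rested in part on a single rat: without Telmisartan-treated 302, 10 of the 28 pairs were below 0, and with group means taken out 6 were. Hk1 and Pkm, for example, went from 0.02 to -0.71 without that rat. The values share arrays and RNA, and 18.4% of all genes had their lowest value in Telmisartan-treated 302, as 7 of these 8 genes did. Eno1 and Pkm were the closest pair, with r = 0.971 (exact permutation p = 0.000174, 0.00486 adjusted over 28 pairs) and a rank correlation of 0.929 (exact permutation p = 0.00223, adjusted p = 0.0625; n = 8). This was 1 of the 28 pairs to pass for r, and 0 passed for the rank correlation. The members were chosen with results of these data known, and the permutation ignored group and slide. These p-values therefore describe how closely a pair ran over the 8 rats and are no evidence of a link particular to it. Leaving out Telmisartan-treated 302 and Control 106, which lay farthest from the median, gave r = 0.893. Taking out slide means gave 0.962, and taking out group means gave 0.997.

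Slc2a1 and Pfkp also ran together, with r = 0.875 (exact permutation p = 0.00583, 0.0591 adjusted) and a rank correlation of 0.833 (exact permutation p = 0.0154, 0.144 adjusted; n = 8), which misses the threshold. Here r was 0.891 when these 2 rats were left out, 0.869 after taking out slide means and 0.772 after taking out group means. Ldha and Eno1 had r = 0.918 (exact permutation p = 0.0112, 0.0591 adjusted) and a rank correlation of 0.738 (exact permutation p = 0.0458, 0.257 adjusted; n = 8), but r was -0.096 without these 2 rats, so that relation rested on them. After slide means were taken out r was 0.901. Each slide held 4 rats, too few for a correlation of its own.

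**Figure D4:**
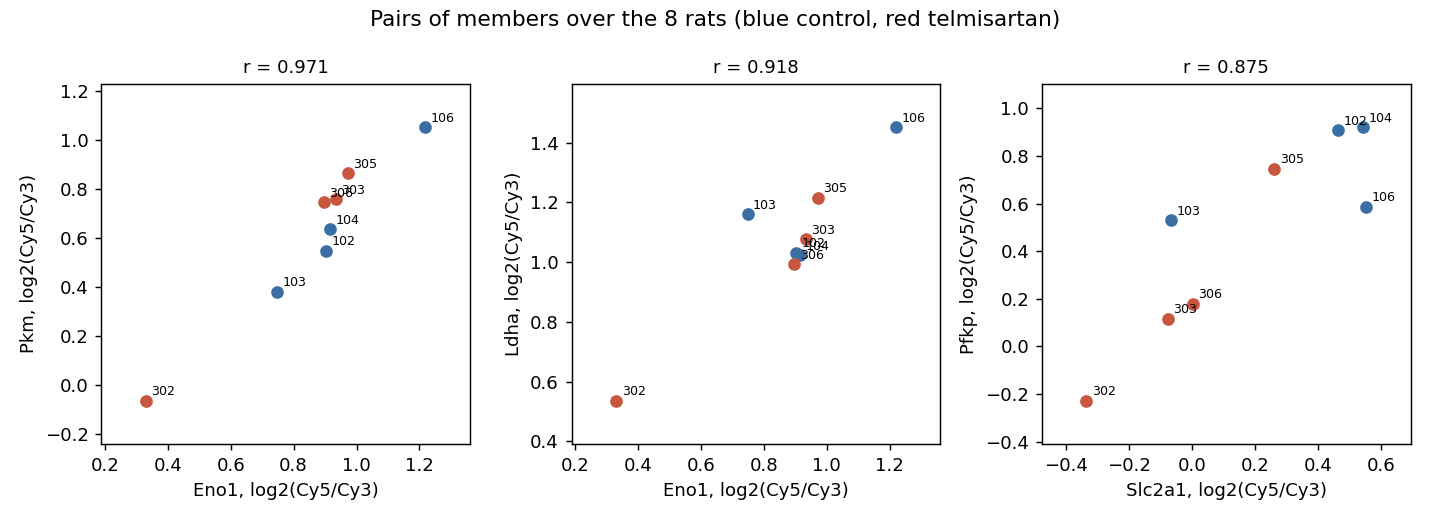
Log2 ratios of 3 pairs of genes over the 8 rats, each point 1 rat with its number (blue control, red telmisartan). Eno1 and Pkm follow a line through all rats (r = 0.971), the Eno1 and Ldha relation (r = 0.918) hangs on rats 302 and 106, and Slc2a1 and Pfkp (r = 0.875) keep their relation without these rats.

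The sequence just before the gene's start is shown for the pair that ran closest, Eno1 and Pkm, and beside it for Ldha, whose relation to Eno1 rested on 2 rats, and for Gys2. The 250 bases up to the start were taken from RefSeq on GRCr8, on the gene's strand and read 5′ to 3′, and 8 of the 9 members matched an entry. Capitals mark 4 motifs on either strand: ACGTG, the core of the hypoxia response element, which the E-box CACGTG contains; the GC box GGGCGG; and TATAAA. Of 33469 windows of this length, 16.6% held ACGTG, 5.59% CACGTG, 30.5% GGGCGG and 12.9% TATAAA. Eno1 had 2 start sites, and the window with a motif is shown.
Eno1, chr5:166003111-166003360, plus strand: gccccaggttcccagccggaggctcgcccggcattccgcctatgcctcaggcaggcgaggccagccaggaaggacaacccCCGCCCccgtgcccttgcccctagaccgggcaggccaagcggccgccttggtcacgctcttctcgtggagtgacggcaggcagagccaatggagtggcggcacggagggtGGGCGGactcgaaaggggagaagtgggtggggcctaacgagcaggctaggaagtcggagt
Pkm, chr8:68953385-68953634, plus strand: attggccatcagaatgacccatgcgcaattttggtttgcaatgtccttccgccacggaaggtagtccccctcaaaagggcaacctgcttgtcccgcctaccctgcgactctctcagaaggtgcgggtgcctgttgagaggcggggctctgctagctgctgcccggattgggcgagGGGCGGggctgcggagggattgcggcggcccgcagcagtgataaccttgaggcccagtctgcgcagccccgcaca
Ldha, chr1:106507842-106508091, plus strand: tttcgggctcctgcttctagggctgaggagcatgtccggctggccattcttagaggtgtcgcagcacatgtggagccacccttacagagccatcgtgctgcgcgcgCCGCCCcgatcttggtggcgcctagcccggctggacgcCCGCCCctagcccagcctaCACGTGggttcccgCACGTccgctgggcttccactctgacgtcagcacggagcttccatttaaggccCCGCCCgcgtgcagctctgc
Gys2, chr4:177137237-177137486, minus strand: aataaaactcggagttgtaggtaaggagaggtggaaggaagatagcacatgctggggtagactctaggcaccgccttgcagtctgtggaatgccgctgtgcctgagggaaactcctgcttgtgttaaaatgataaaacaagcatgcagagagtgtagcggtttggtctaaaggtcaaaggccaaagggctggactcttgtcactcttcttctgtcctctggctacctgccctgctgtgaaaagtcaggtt
The Ldha window gave 3 matches to ACGTG counting both strands, of which 2 were the single CACGTG read on either strand, and 3 GC boxes. The Eno1 window held 2 GC boxes and the Pkm window 1, and the Gys2 window held none of the 4 motifs. These are matches of letters in a short window and nothing was measured about binding there.

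Markers of other cell types also differed between the rats. All 9 measured T cell markers had a lower mean under telmisartan, and their mean log2 ratio was 2.18, 0.63, 2.12 and 1.82 in Control 102, 103, 104 and 106, and 0.33, 1.01, 1.92 and 1.28 in Telmisartan-treated 302, 303, 305 and 306. Telmisartan-treated 302 and Control 103 were the lowest. On the probes of the fit, Control 103 was also the lowest control for Slc2a1, Hk2, Pfkp, Eno1 and Pkm. It was the highest of the 8 rats for Pgk1 and Hk1, and lay between other controls for Ldha. Of 10 macrophage markers 8 were lower, 2 of them at an unadjusted p under 0.05 in the limma fit, while 0 of the T cell markers were. The macrophage mean ran from 1.02 in Control 103 to 1.76 in Control 102, and from 0.64 in Telmisartan-treated 302 to 1.66 in Telmisartan-treated 305. None of these markers was without signal: all were well above background on at least 1 array, and Cd3g, of the T cell receptor complex, was at 2.51 ± 1.13 in control and 1.76 ± 1.02 in treated rats (SD, n = 4 each). The mean of 10 proliferation genes ran from 2.93 to 3.48 in control and from 2.92 to 3.34 in treated rats, and Telmisartan-treated 302, at 3.34, was the highest treated rat. Smooth muscle markers ran the other way: 6 of 8 were higher in treated rats, 3 of them at an unadjusted p under 0.05 and 0 after adjustment. Their mean ran from -1.41 to -0.89 in control and from -1.13 to -0.77 in treated rats, with Telmisartan-treated 302 the highest of the 8. Of 6 basal epithelial markers 5 were higher, 1 of them at an unadjusted p under 0.05, and their mean ran from -1.38 in Control 103 to -0.50 and from -0.86 in Telmisartan-treated 302 to -0.31. Over all genes 50.6% were lower in treated rats. At an unadjusted p under 0.05 in the limma fit, 2.07% of all genes were lower and 2.74% higher. The part of immune, muscle or basal cells in the values of Slc2a1, Pfkp and the other glycolysis genes was not tested.

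**Figure D5:**
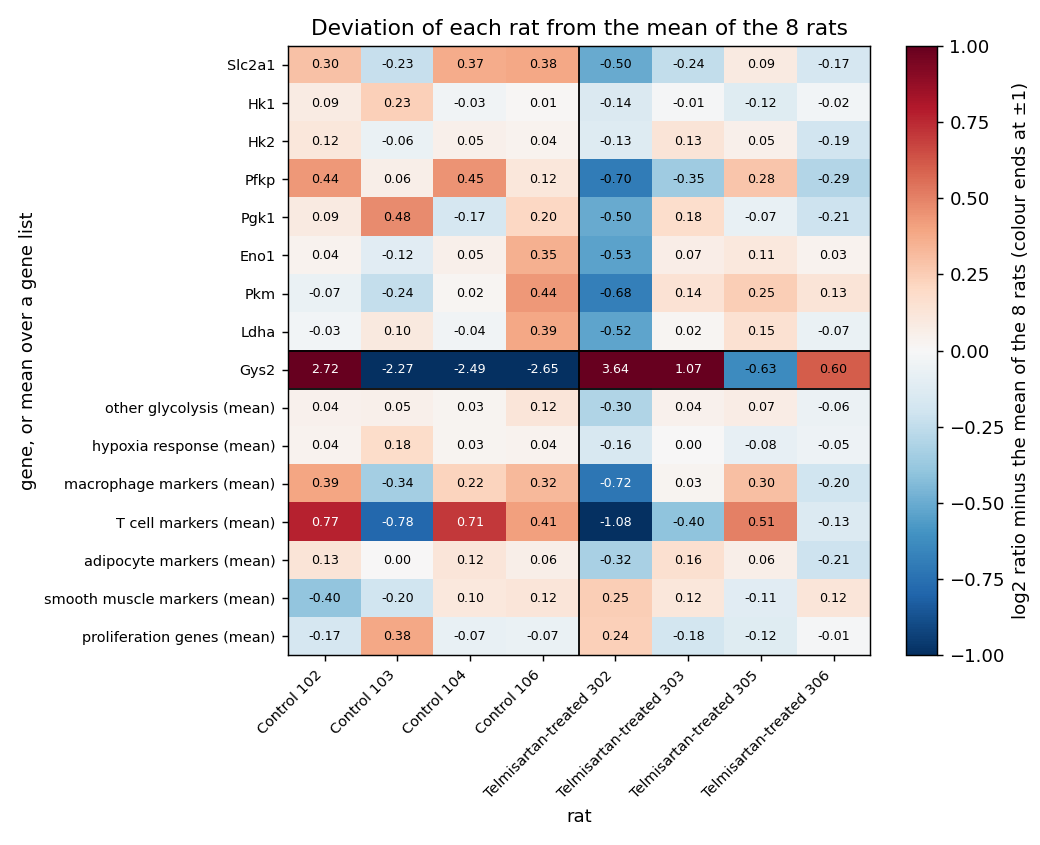
Log2 ratio of each rat minus the mean of the 8 rats, for the 8 glycolysis genes, for Gys2 and for the means of 7 gene lists; the colour scale ends at ±1. Telmisartan-treated 302 was below the mean for all 8 glycolysis genes and for the T cell and macrophage markers (-1.08 and -0.72), but above it for Gys2 (3.64) and proliferation genes (0.24).

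Other genes of glucose metabolism were followed from lists. Of 22 other glycolysis genes 18 were tested: 13 were lower and 5 higher on average in treated rats, with a median difference of -0.09, where 50.6% of all genes were lower, and 0 passed after adjustment. At an unadjusted p under 0.05 there was 1 of the 18, Pgam1, the phosphoglycerate mutase that acts between Pgk1 and Eno1, and this share is near the 4.82% of all genes. Its log2 ratio was 0.43, 0.30, 0.21 and 0.48 in control rats and 0.08, 0.16, 0.18 and 0.13 in treated rats, without overlap (difference -0.22, SE 0.09, limma adjusted p = 0.982). Bpgm, a phosphoglycerate mutase best known from red cells, differed by -0.45 (SE 0.21) and Hk3, a hexokinase best known from myeloid cells, by -0.77 (SE 0.42). Hk3 was at 0.94 in Telmisartan-treated 302 and 1.94 in Control 103, the rats with the lowest T cell marker means, against 1.96 to 3.24 in the others. Of the 18 genes, 10 had their lowest value in Telmisartan-treated 302, as did 18.4% of all genes.

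Transport and disposal of the products showed no common direction. Of 10 transporters of glucose, lactate and pyruvate 4 were lower and 6 higher, with a median of 0.05. Slc16a3, the lactate exporter MCT4, differed by -0.87 (SE 0.50), with Telmisartan-treated 302 at -0.48 and the other 7 rats at 0.66 to 2.38. Slc2a4, the insulin-responsive transporter GLUT4, differed by 0.31 (SE 0.24) and Slc2a8 by 0.13 (SE 0.10). Of 8 genes of the pyruvate dehydrogenase complex and its kinases and phosphatases 2 were lower and 6 higher, with Pdk2, a kinase that switches the complex off, at 0.20 (SE 0.12), the subunit gene Pdha1 at -0.15 (SE 0.11) and Dld at 0.08 (SE 0.09).

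Other genes of glycogen showed no common direction. Of 17 tested genes of glycogen metabolism 7 were lower and 10 higher, with a median of 0.02 and 0 past an unadjusted p of 0.05. Ppp1r3b, which brings a phosphatase to glycogen and is known to activate glycogen synthase, differed by -0.34 (SE 0.19), the phosphorylase kinase subunit gene Phka1 by 0.21 (SE 0.12) and the muscle glycogen phosphorylase gene Pygm by 0.16 (SE 0.10). In Control 102 and Telmisartan-treated 302 Ppp1r3b was at 0.99 and 0.17, near the top and at the bottom of its range. Of 6 genes of gluconeogenesis 3 were lower and 3 higher, among them the fructose bisphosphatase genes Fbp1 at -0.36 (SE 0.18) and Fbp2 at -0.46 (SE 0.36), and the glucose 6-phosphate transporter Slc37a4 at 0.11 (SE 0.10).

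In the pentose phosphate pathway 4 of 5 genes were lower and 1 higher, with a median of -0.09; Rpe was at -0.11 (SE 0.13), Taldo1 at -0.13 (SE 0.16) and Pgls at -0.09 (SE 0.12). Of 17 genes of the hypoxia response 14 were lower and 3 higher, with a median of -0.07, where 50.6% of all genes were lower. At an unadjusted p under 0.05 there was 1 of the 17, a share near the 4.82% of all genes. The oxygen-sensing hydroxylase Egln3 differed by -0.51 (SE 0.27), with Telmisartan-treated 302 at -0.15 and the other 7 rats at 0.84 to 1.45, and the hypoxia-inducible Ndrg1 by -0.43 (SE 0.26). The gene with the small p was P4ha1, at -0.48 (SE 0.10). Of 12 genes of insulin and AMPK signalling 4 were lower and 8 higher, with Prkaa2 at 0.17 (SE 0.17), Crtc2 at 0.10 (SE 0.11) and Prkaa1 at 0.05 (SE 0.09). In all of these lists 0 genes passed after adjustment over all genes.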

How the data were processed

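Each of 8 samples, 4 control and 4 telmisartan, was 1 array of 1 rat. The deposited scanner files, read with Agilent Feature Extraction 9.1 per the submitters' processing notes, give mean pixel intensity and local background per spot, uncorrected. They also hold a log10 ratio that, per the file headers, was background-subtracted and dye-normalized; the deposited series matrix holds the same log10 ratios, which matched in file order to within 0.005 with a median of 0 on every array. Dyes were not swapped. The sources used here do not say if 1 pool served as the reference. The treated rats carry a label that gives 2 and 10 mg/kg/day together.

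From the deposited intensities, log2 ratios were computed with limma 3.58.1 in R 4.3.3 by normexp (offset 50) and loess within arrays, with control spots at weight 0 and outlier spots left out. Spots of a probe were averaged. Kept probes rose well above background in Cy5 for 4 or more of the 8 arrays and had a value on all 8, and the probe with the highest mean intensity stood for a gene. This left 23188 genes, and all 9 members passed, Gys2 with 6 of 8 arrays well above background. Groups were compared by two-sided moderated tests of limma (lmFit, eBayes), and p-values were adjusted over all genes by Benjamini-Hochberg with a threshold of 0.05. In simulated data of this design 76% of 100 genes changed by 1 on the log2 scale and 98% of 100 changed by 2 were recovered. The noise was drawn separately for each gene, so shifts that many genes share in 1 rat were left out. Changes as small as those of the 8 uptake and glycolysis genes, -0.53 to -0.07, were not simulated, so their recovery is not known. Intensities per channel for bounds came from loess and Aquantile. Correlations used all 40320 pairings of the rats, two-sided. Gene symbols were updated through RefSeq names of GRCr8 where they matched.

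The members, gene lists and rules were chosen with earlier results of these data known. Named beside the members were, from each gene list, up to 3 genes with the smallest unadjusted p, and from the genes with a symbol and an SD of at least 0.5, the 6 with the highest and the 3 with the lowest r with Gys2. From a marker list, genes among the 2 with the highest mean Cy5 signal could be named. Slide was an alternative block. Other alternatives covered background correction, normalization, the Cy5 channel alone, the dim-probe filter, several probes of a gene, the variance model, array weights and each rat left out. P-values measure the spread between the rats of each group.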

Additional observations from a re-analysis of the deposited data

Results flagged for a closer look

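In groups of 4 rats, a rat was singled out where its gap to the nearest other rat, divided by the range of the group, passed Dixon's critical value for that number. Gys2 was left out of this check, because it was chosen for differing between single rats. Of 64 groups examined 7 did so, where chance gives about 1 in 20. Among control rats, Control 103 stood apart for Slc2a1 at 0.857, low at -0.07 against 0.46 to 0.55. The same rat stood apart in the mean of the hypoxia response genes at 0.949 (0.21 against 0.05 to 0.06, high), of the B cell markers at 0.836 (0.65 against 1.09 to 1.18, low) and of the endothelial markers at 0.866 (-0.52 against -0.19 to -0.13, low). Among treated rats, Telmisartan-treated 302 stood apart for Eno1 at 0.883, for the second Eno1 probe at 0.961 and for Pkm at 0.874, each time as the lowest. Several of these groups share a gene or a rat and are not independent.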

How the results depend on the processing

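Of 197 differences of members, Gys2 included, between treated and control rats under the alternatives, 193 kept their direction, 4 turned and 0 passed after adjustment. Part of that count was fixed in advance. Aquantile, slide as a block and the variance model cannot turn a difference, and the series matrix nearly repeats the scanner ratios. With these first 3 and with either change of the dim-probe filter, the median difference of the 8 uptake and glycolysis genes stayed at -0.19. Hk2 turned to 0.032 in the Cy5 channel alone. Pkm turned to 0.011 with median centring and ran from -0.17 to 0.14 with 1 rat left out, turning without Control 106 (0.05) and without Telmisartan-treated 302 (0.14). The number of genes called over all genes was 0 with all rats and 0 to 1 with 1 rat left out: 1 without Control 102 and 1 without Telmisartan-treated 303, and 0 in every other alternative run. Members above the reference in every rat numbered 4, and 8 with median centring, 7 on slide 2 alone and 4 to 6 with 1 rat left out. The range of Gys2 over the rats, as read and ending in a signal not well above background, was 6.29; it was 9.66 with the scanner software's ratios, 9.65 with the series matrix, 3.25 on slide 2 alone and 5.36 to 6.29 with 1 rat left out. Control 102 and Telmisartan-treated 302, the rats with the highest Gys2, both lay on slide 1, so the range on slide 2 alone leaves them out. The cause of the other changes in the range was not tested. Requiring signal well above background on all 8 arrays left Gys2 out, so it has no value there. No paired analysis was possible because the groups share no replicate numbers. Signal over background limits Gys2 in the 3 low controls, whose differences from each other cannot be read.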
